A study of Mus musculus with 28 samples.

Results

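Avp, Oxt, Trh, Crh, Hcrt, Pmch, Pomc and Gal encode precursors of neuropeptides that are best known from hypothalamic neurons, and their levels were followed here in midbrain and cortex dissections of mice that carry a humanized Nova1 allele. These 8 genes, of 23038 in the deposited tables, were chosen by name with earlier results of the same libraries known. They were selected on the E18.5 midbrain genotype difference of Avp and Oxt and on how the peptide genes varied between single libraries, so both of these are given as descriptions with no test. The genotype differences at P21, the region difference and the age difference were tested.

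Neuropeptides are cut from larger precursors inside dense-core vesicles and released to act on G protein-coupled receptors. Vasopressin (Avp) and oxytocin (Oxt) are made by magnocellular and parvocellular neurons of the paraventricular and supraoptic nuclei. Thyrotropin-releasing hormone (Trh) and corticotropin-releasing hormone (Crh) drive pituitary axes, but both genes are also transcribed outside the hypothalamus, Crh in cortical interneurons among other cells. Orexin (Hcrt) and melanin-concentrating hormone (Pmch) mark separate neurons of the lateral hypothalamus, proopiomelanocortin (Pomc) marks neurons of the arcuate nucleus, and galanin (Gal) is found in several hypothalamic and brainstem groups. A bulk dissection that includes tissue next to these nuclei can carry their transcripts, and in bulk tissue fewer cells of a type and less RNA per cell cannot be told apart.

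The 28 bulk RNA-seq libraries came from Nova1 hu/hu mice, which are homozygous for the human isoleucine-to-valine substitution in the RNA binding protein NOVA1, and from Nova1 wt/wt siblings with the mouse allele, all on the strain background that the labels call BL6, C57BL/6J in the study's methods. There were 6 libraries of each genotype from E18.5 midbrain, 4 of each from P21 midbrain and 4 of each from P21 cortex, where E18.5 is an embryonic day and P21 a postnatal day. No allele is removed in either genotype, and the gene tables do not show which allele a library carried. Assigned reads per library ranged from 18550922 to 35047494 at E18.5, from 25256326 to 45134998 in P21 midbrain and from 30423267 to 35643736 in P21 cortex. Nothing in the labels says whether cortex and midbrain came from the same mice, and p-values measure the spread between these libraries.

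The dissections carried the markers of their labelled regions, and the midbrain libraries also carried thalamic markers and transcription factor genes of the hypothalamus. The summed level of 7 midbrain markers was 87.7 to 104.5 TPM (the count divided by exon length and scaled to a fixed total per library) at E18.5, 154.1 to 191.1 TPM in P21 midbrain and 10.4 to 20.7 TPM in P21 cortex. In cortex Th (173 to 416 counts), Slc6a3 (7 to 28) and En2 (6 to 17) had counts in every library, and Pax7 had at most 1. Summed thalamic markers were at 195.1 to 235.3 TPM at E18.5, 344.8 to 440.8 TPM in P21 midbrain and 38.5 to 44.2 TPM in P21 cortex. Summed telencephalic markers were at 23.8 to 32.6, 4.82 to 6.59 and 211.9 to 240.3 TPM in the same order. A sum depends on the genes listed and does not measure an amount of tissue. Otp, a homeobox gene needed for neuroendocrine neurons that make Avp, Oxt, Trh and Crh, was at 7.78 to 16.7 TPM at E18.5, at 4.48 to 8.0 TPM in P21 midbrain and at 0 to 0.812 TPM in P21 cortex. All 13 listed hypothalamic factors had counts in every midbrain library of both ages, and 5 of 13 had counts in every cortex library. Of 9 pituitary markers, Gh and Prl were at 0 counts in all 28 libraries, which allows up to 3 counts in each, but others were present in P21 midbrain, with 18 to 57 counts of Tshb, 8 to 49 of Cga and 12 to 29 of Lhb in a library. The summed pituitary markers were at 3.17 to 6.92 TPM at E18.5, 6.01 to 12 TPM in P21 midbrain and 1.5 to 4.38 TPM in P21 cortex. Of 4 tested, edgeR called 4 and DESeq2 3 higher in P21 midbrain than in cortex, beside 37.9% of all genes tested by edgeR. Only 2 pituitary markers passed the filter on low counts within cortex alone, so the others entered through the midbrain libraries, where they are high. Pomc is itself a pituitary gene, and the part of pituitary tissue in its level was not tested. Markers of tissue that a dissection may or may not include differed most between libraries: summed choroid plexus markers spanned 45.8 to 3699 TPM at E18.5 and 13.7 to 3065 TPM in P21 midbrain, and summed hindbrain Hox genes spanned 7.29 to 30.1 TPM and 6.71 to 41.9 TPM.

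Avp and Oxt lie tail to tail on chromosome 2 (Avp, chr2:130580620-130582588, minus strand; Oxt, chr2:130574519-130577054, plus strand), 3565 bases apart with 0 annotated genes wholly between them. Their precursors share a closely similar neurophysin exon, and how reads that match both genes were counted is not given in the sources used here, so the values of this pair are less certain than those of the others. Trh lies on chromosome 6, Crh on chromosome 3, Hcrt on chromosome 11, Pmch on chromosome 10, Pomc on chromosome 12 and Gal on chromosome 19. Promoters are shown for 2 pairs of genes described together below, the neighbours Avp and Oxt and the lateral hypothalamic genes Hcrt and Pmch. Each is the 250 bases before the RefSeq start in GRCm38.p6, written 5′ to 3′ on the strand of the gene, with matches to the motifs named below in capitals. For Oxt the start used by the promoter table lies within the gene interval given above, not at its first base.

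Avp, chr2:130582589-130582838, minus strand: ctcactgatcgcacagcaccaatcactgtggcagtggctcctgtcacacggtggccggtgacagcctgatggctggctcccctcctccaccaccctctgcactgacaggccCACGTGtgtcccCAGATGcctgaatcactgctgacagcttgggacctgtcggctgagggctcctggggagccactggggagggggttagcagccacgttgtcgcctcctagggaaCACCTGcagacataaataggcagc

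Oxt, chr2:130575919-130576168, plus strand: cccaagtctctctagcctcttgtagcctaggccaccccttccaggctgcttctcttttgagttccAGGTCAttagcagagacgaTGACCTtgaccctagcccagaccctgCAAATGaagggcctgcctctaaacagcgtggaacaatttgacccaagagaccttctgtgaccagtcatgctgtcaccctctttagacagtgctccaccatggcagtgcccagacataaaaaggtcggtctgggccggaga

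Hcrt, chr11:100762932-100763181, minus strand: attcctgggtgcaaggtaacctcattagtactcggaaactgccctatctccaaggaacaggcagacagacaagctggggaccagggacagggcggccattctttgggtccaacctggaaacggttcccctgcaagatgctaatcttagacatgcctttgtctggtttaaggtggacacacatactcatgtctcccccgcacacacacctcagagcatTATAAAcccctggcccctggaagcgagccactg

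Pmch, chr10:88090822-88091071, plus strand: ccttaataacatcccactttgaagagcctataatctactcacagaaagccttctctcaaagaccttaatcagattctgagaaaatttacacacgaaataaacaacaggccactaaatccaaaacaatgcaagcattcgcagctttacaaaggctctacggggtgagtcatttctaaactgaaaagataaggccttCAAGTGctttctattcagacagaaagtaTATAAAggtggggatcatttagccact

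The capitals mark matches to 5 motifs, each searched on both strands in windows of 300 bases that also hold 50 bases after the start. They were the TATA box (letters TATAAA), the core of nuclear receptor elements (letters TGACCT), the core of cyclic AMP elements (letters TGACG), a homeodomain core (letters TAATTA) and the E-box (letters CANNTG). Of the 8 genes, 7 had a RefSeq promoter entry. Hcrt and Pmch each held 1 TATA box, beginning 33 and 27 bases before the start, and Pomc held another, whereas Avp, Oxt, Trh and Gal held 0. It was present in 13.6% of 32851 RefSeq promoters. Oxt held 2 nuclear receptor cores, at 185 and 166 bases before the start, Trh and Pomc 1 each and Avp 0, against 16.3% of promoters with at least 1. Avp held 3 E-boxes and Oxt 1, a motif present in 72.3% of promoters. The cyclic AMP core, found in 20.8% of promoters, occurred in Trh and Gal, and the homeodomain core, found in 5.29%, in Pomc. A match is a description of these letters and not a site of binding.

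At P21 the midbrain held far more of the 2 lateral hypothalamic peptide transcripts than the cortex. Pmch was at 161, 172, 191 and 163 TPM in the Nova1 hu/hu midbrain libraries and at 158, 147, 200 and 162 TPM in the Nova1 wt/wt ones, against 0.133 to 1.11 TPM and 0.724 to 1.34 TPM in the cortex. The groups of the 2 regions did not overlap, and cortex libraries held only 1 to 11 counts of Pmch. The region difference of Pmch was 7.72 on the log2 scale (SE 0.14; edgeR quasi-likelihood test, Benjamini-Hochberg adjusted p = 7.85e-24), a 211-fold higher level in midbrain. Hcrt was at 42.3, 58.0, 57.1 and 40.7 TPM in Nova1 hu/hu and at 52.8, 44.3, 60.0 and 41.9 TPM in Nova1 wt/wt midbrain. In cortex Hcrt had 0 to 4 counts in a library, with 2 Nova1 wt/wt libraries at 0 counts, which allows up to 3 counts in each. Hcrt was higher in midbrain by 7.54 on the log2 scale (SE 0.23; edgeR adjusted p = 1.87e-19). Neither Pmch nor Hcrt passed the filter on low counts within cortex alone. Both entered this fit through the midbrain libraries, where they are high, and their fitted values rest on few cortex counts.

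Oxt and Avp were also higher in P21 midbrain than in P21 cortex. Oxt was at 75.4, 89.2, 104 and 93.9 TPM in Nova1 hu/hu midbrain and at 68.6, 102, 71.8 and 90.4 TPM in Nova1 wt/wt midbrain. In cortex Oxt was at 9.54, 0.178, 15.2 and 13.4 TPM in Nova1 hu/hu and at 7.33, 4.48, 4.79 and 7.75 TPM in Nova1 wt/wt. All midbrain libraries lay above all cortex libraries, and the library of Nova1 hu/hu replicate 2 was far below the other cortex libraries. The region difference of Oxt was 3.41 (SE 0.25; edgeR adjusted p = 7.20e-12), 10.6-fold. Avp was at 48.4, 65.6, 67.4 and 71.0 TPM in Nova1 hu/hu midbrain and at 62.8, 65.9, 43.8 and 69.7 TPM in Nova1 wt/wt midbrain. In cortex Avp was at 7.88, 0.660, 12.3 and 18.3 TPM in Nova1 hu/hu and at 13.4, 8.33, 2.14 and 10.3 TPM in Nova1 wt/wt. The regions did not overlap for Avp either, and the difference was 2.69 (SE 0.27; edgeR adjusted p = 2.92e-09), 6.46-fold. Without Nova1 hu/hu replicate 2 of cortex the difference was 3.20 for Oxt and 2.49 for Avp, and both stayed called.

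Gal, Pomc and Trh were higher in midbrain than in cortex by smaller amounts, and Crh went the other way. Gal was at 37.7 to 46.3 TPM in the 8 midbrain libraries and at 3.43 to 9.43 TPM in the 8 cortex libraries, a log2 difference of 2.56 (SE 0.12). Pomc was at 4.57 to 9.26 TPM against 1.76 to 3.71 TPM, a difference of 1.25 (SE 0.17). Trh was at 24.1 to 34.3 TPM against 10.7 to 13.3 TPM, a difference of 1.20 (SE 0.07). For these 3 genes every midbrain library lay above every cortex library, and all 3 passed the edgeR test, the largest adjusted p being 5.78e-07 for Pomc. Crh was at 4.41, 6.38, 3.83 and 8.40 TPM in Nova1 hu/hu and at 9.26, 4.37, 3.41 and 5.65 TPM in Nova1 wt/wt midbrain. In cortex it was at 7.71, 8.12, 5.82 and 8.42 TPM and at 6.54, 8.29, 7.32 and 6.64 TPM, so that the regions overlapped for Crh. Crh was lower in midbrain by a log2 difference of -0.44 (SE 0.17; edgeR adjusted p = 0.0194), which within Nova1 wt/wt alone was -0.44 and was no longer called (edgeR adjusted p = 0.109).

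In all, 7 of the 8 genes were called higher in midbrain and 1 lower, with a call requiring p under 0.05 and adjusted p under 0.1. Over all 16345 genes tested, 37.9% were called higher in midbrain and 37.7% lower. The median log2 difference was 2.63 over the 8 genes and 0.00063 over all genes tested. Hcrt and Pmch entered this fit through the midbrain libraries, where they are high, since neither passed the filter within cortex alone, so their place in the count was set in part by the filter. The same holds for 7 of the 10 hypothalamic factors that were tested, of which only Nkx2-1, Six3 and Tbx3 passed within cortex. All 10 were called higher in midbrain, for example Otp by 4.02 (SE 0.32) and Sim1, another factor of those neuroendocrine neurons, by 2.77 (SE 0.21), both picked as examples after their values were seen. The part of tissue carried over from neighbouring regions in these differences was not tested.

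**Figure D1:**
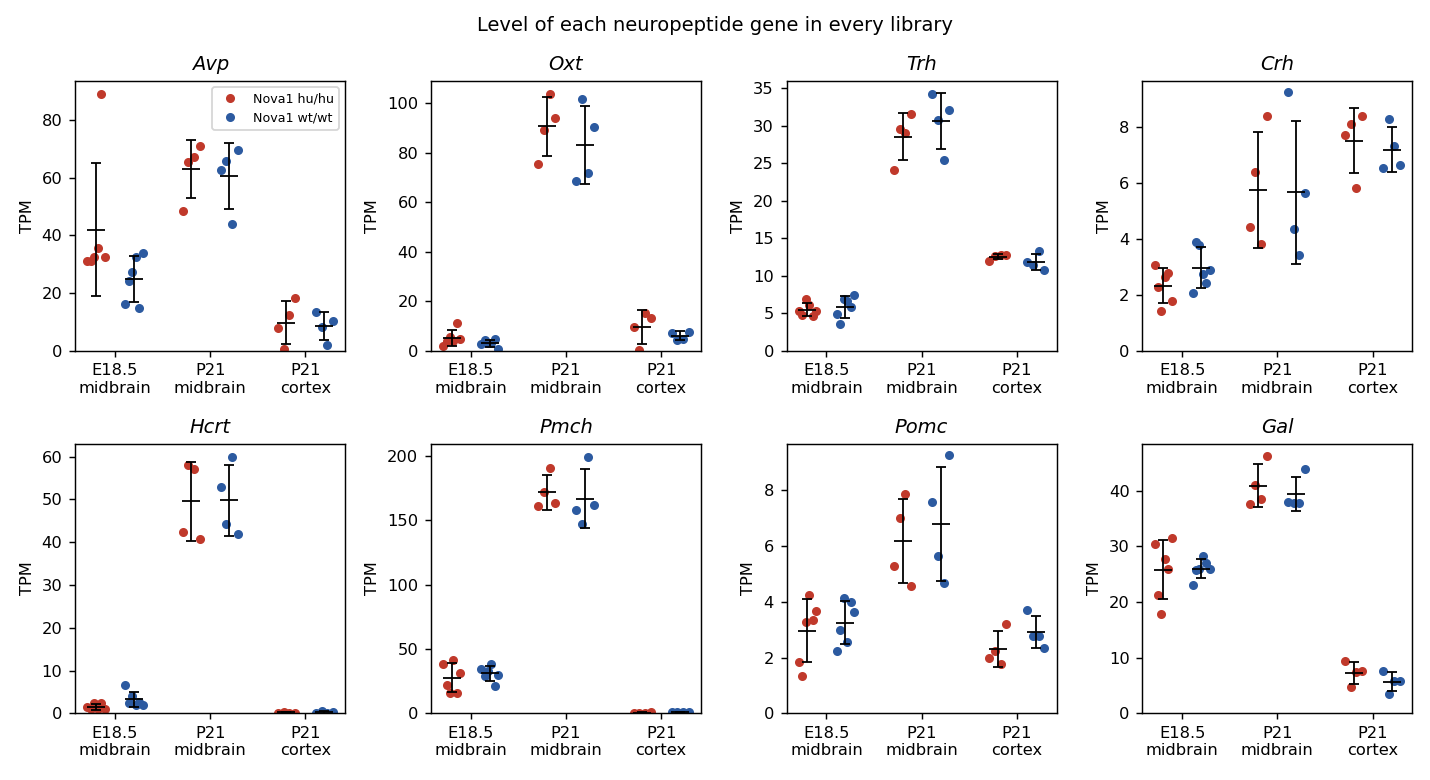
Level of each of the 8 genes in TPM (vertical axes, each from 0) in every library, by age and region; red points are Nova1 hu/hu and blue points Nova1 wt/wt libraries, and black bars give the mean ± SD. Pmch, Hcrt, Oxt, Trh and Gal stand highest in P21 midbrain, Crh does not, and 1 Nova1 hu/hu library at E18.5 reaches 89.2 TPM of Avp.

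The order of the genes by mean TPM differed between the 3 settings. At E18.5 Avp (33.5 ± 18.8 TPM, SD, n = 12), Pmch (29.4 ± 8.70) and Gal (25.9 ± 3.75) led, and the ranges of these neighbours overlapped. Trh (5.66 ± 1.16), Oxt (4.14 ± 2.64), Pomc (3.10 ± 0.931), Crh (2.65 ± 0.734) and Hcrt (2.43 ± 1.55) followed, all overlapping with the next in order, and only the step from Gal to Trh was wider than the ranges. In P21 midbrain Pmch (169 ± 17.6 TPM, SD, n = 8) stood clear above Oxt (86.8 ± 13.4), and Oxt, Avp (61.8 ± 10.1), Hcrt (49.6 ± 8.16) and Gal (40.2 ± 3.33) overlapped each with the next. Trh (29.6 ± 3.40) lay below Gal without overlap, and Pomc (6.48 ± 1.69) and Crh (5.71 ± 2.16) lay below Trh and overlapped each other. In P21 cortex Trh (12.2 ± 0.830 TPM, SD, n = 8), Avp (9.16 ± 5.81), Oxt (7.83 ± 4.89), Crh (7.36 ± 0.945), Gal (6.48 ± 1.91) and Pomc (2.60 ± 0.65) overlapped in sequence. Pmch (0.753 ± 0.437) and Hcrt (0.234 ± 0.224) had lower means and overlapped each other. The range of Pmch lay below that of Pomc, but the lowest Avp and Oxt values, 0.660 and 0.178 TPM in Nova1 hu/hu replicate 2, lay within the range of Pmch.

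Between E18.5 and P21 all 8 transcripts rose in the midbrain, by amounts that differed widely. The largest increases were those of Oxt, by 4.58 on the log2 scale (SE 0.18; edgeR adjusted p = 2.19e-18), and Hcrt, by 4.57 (SE 0.18; edgeR adjusted p = 3.06e-18), or 23.9-fold and 23.8-fold. Hcrt did not pass the filter within E18.5 and entered the age fit through P21, where it is high. At E18.5 Hcrt was at 1.03, 1.26 and 2.47 TPM in Nova1 hu/hu as lowest, median and highest, and at 1.85, 2.59 and 6.56 TPM in Nova1 wt/wt, from 4 to 24 counts in a library. Pmch rose by 2.73 (SE 0.14) from a level of 16 to 41.9 TPM at E18.5, and Trh by 2.58 (SE 0.10) from 3.52 to 7.45 TPM. For Oxt, Hcrt, Pmch and Trh every P21 midbrain library lay above every E18.5 library. Crh rose by 1.32 (SE 0.19), Pomc by 1.25 (SE 0.18), Avp by 1.13 (SE 0.19) and Gal by 0.83 (SE 0.09), the largest edgeR adjusted p among these being 4.58e-06 for Avp. The ages overlapped for Crh, and for Avp through the 1 Nova1 hu/hu library at 89.2 TPM, without which Avp rose by 1.32. All 8 genes were called higher at P21, where 42.4% of the 16330 genes tested were called higher and 43.3% lower, and the medians were 1.95 over the 8 genes and -0.015 over all genes. Over the same interval 10 of 13 hypothalamic factors were called lower and 0 higher, with a median of -0.96. Taken alone, 11 of the 13 factors passed the filter at E18.5 and 10 in P21 midbrain. The age of the mice, the dissection at each age and the preparation of the libraries cannot be told apart here.

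The neighbours Avp and Oxt changed their balance with age. At E18.5 the TPM of Avp exceeded that of Oxt in 12 of 12 libraries, by a median ratio of 7.99 (range 3.25 to 59.0). In P21 midbrain Oxt exceeded Avp in 8 of 8 libraries, by a median ratio of 1.45 (range 1.09 to 1.64). In P21 cortex the ratio of Oxt to Avp ranged from 0.269 to 2.24 with a median of 0.744. The highest E18.5 ratio came from Nova1 wt/wt replicate 6, which held 2 counts of Oxt.

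**Figure D2:**
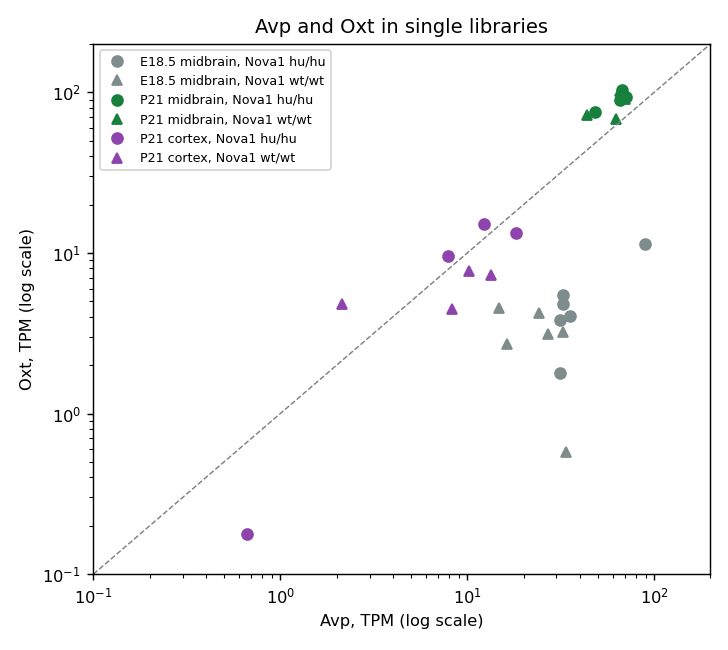
Avp (horizontal axis) against Oxt (vertical axis), both in TPM on log scales, with 1 point for each of the 28 libraries; colours give the setting, circles Nova1 hu/hu, triangles Nova1 wt/wt, and the dashed line marks equal TPM. All E18.5 midbrain libraries lie below the line and all P21 midbrain libraries above it, and the cortex library at the lower left held 4 counts of Avp and 1 of Oxt.

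No genotype difference of the 8 genes was called at P21. In P21 midbrain 0 of 8 were called by edgeR, 0 of 8 had an unadjusted p under 0.05 and 0 of 8 were called by DESeq2, against 0% called and 2.67% with an unadjusted p under 0.05 among 15972 genes tested, of which DESeq2 called 1. Log2 differences, Nova1 hu/hu minus Nova1 wt/wt, ran from -0.14 for Pomc (SE 0.23, 95% confidence interval -0.62 to 0.35) to 0.12 for Oxt (SE 0.13, interval -0.15 to 0.39). The most precise were Pmch at 0.05 (SE 0.08, interval -0.13 to 0.23) and Gal at 0.06 (SE 0.09, interval -0.14 to 0.26). A 1.5-fold change lay outside the intervals of all genes but Pomc and Crh, whose interval ran from -0.55 to 0.65.

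In P21 cortex 6 of the 8 genes passed the filter on low counts, and 0 of 6 were called by edgeR or DESeq2 and 0 had an unadjusted p under 0.05, against 0% and 2.85% of 15767 genes. Oxt differed by 0.65 (SE 0.54, 95% confidence interval -0.50 to 1.80), Gal by 0.36 (SE 0.25, interval -0.18 to 0.90), Pomc by -0.33 (SE 0.26, interval -0.88 to 0.22) and Avp by 0.19 (SE 0.55, interval -0.98 to 1.37). The Nova1 hu/hu libraries spanned 1 to 85 counts of Oxt and 4 to 100 counts of Avp. Without replicate 2 of Nova1 hu/hu, which had the lowest Oxt and Avp, the difference was 1.07 (SE 0.25) for Oxt and 0.60 (SE 0.38) for Avp, and neither was called (edgeR adjusted p = 1.0 for both). Trh and Crh differed by 0.09 (SE 0.10) and 0.06 (SE 0.15). Among same-numbered pairs of cortex libraries, Gal was higher in Nova1 hu/hu in 4 of 4 and Pmch in 0 of 4, the latter on 1 to 11 counts. They are named because all their pairs went in 1 direction, and the share of all genes that do so is not given here. No difference of the genotype effect between the regions was called: 0 of 8 genes passed the edgeR interaction test, 0 of 8 passed by DESeq2 and 0 of 8 had an unadjusted edgeR p under 0.05, against 0% and 2.28% of 16345 genes. The largest value was that of Pmch, at 1.0 (SE 0.49, 95% confidence interval -0.01 to 2.01; edgeR adjusted p = 1.0), with a range of 0.73 to 1.65 when single libraries were left out. Its unadjusted p was 0.053 by edgeR, 0.031 by edgeR with same-numbered libraries paired and 0.024 by DESeq2, with adjusted p at 1.0 in each, and its cortex libraries held only 1 to 11 counts.

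At E18.5, where the genes were selected, Avp ran from 31.2 to 89.2 TPM with a median of 32.5 in Nova1 hu/hu and from 14.7 to 33.9 TPM with a median of 25.7 in Nova1 wt/wt. The 6 Nova1 hu/hu libraries held 94, 105, 115, 114, 321 and 182 counts of Avp and the 6 Nova1 wt/wt libraries 52, 86, 113, 109, 56 and 127. The groups overlapped, and replicate 5 of Nova1 hu/hu was by far the highest library. Its level was also the highest for Oxt, at 11.4 TPM from 38 counts, where the remaining Nova1 hu/hu libraries ranged from 5 to 25 counts and the Nova1 wt/wt libraries from 2 to 16. The log2 differences were 0.75 (SE 0.27) for Avp and 0.77 (SE 0.40) for Oxt, and without Nova1 hu/hu replicate 5 they were 0.39 and 0.41. That library also had the highest summed hypothalamic factors (60.4 TPM, against 42.2 to 59.8 TPM in the others), the highest summed midbrain markers (104.5 TPM) and the lowest summed hindbrain Hox genes (7.29 TPM). The part of these in the Avp and Oxt values was not tested.

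The other genes all had negative differences at E18.5, opposite in sign to Avp and Oxt, and for Pmch, Pomc, Trh and Gal these were smaller than their SE in the unpaired fit. Crh differed by -0.38 (SE 0.23), Pmch by -0.17 (SE 0.23), Pomc by -0.13 (SE 0.26), Trh by -0.11 (SE 0.18) and Gal by -0.01 (SE 0.14). With same-numbered libraries paired, Pmch differed by -0.23 (SE 0.13), larger than its SE, and Pomc, Trh and Gal still differed by less than theirs. Hcrt did not pass the filter on low counts. Its counts were 5, 4, 10, 4, 10 and 7 in Nova1 hu/hu and 24, 10, 19, 8, 12 and 8 in Nova1 wt/wt, lower in Nova1 hu/hu in 6 of 6 same-numbered pairs though the groups overlapped. The share of all genes with every pair in 1 direction is not given here. Without the filter the log2 difference of Hcrt was -1.04 (SE 0.38). Avp was higher in Nova1 hu/hu in 5 of 6 pairs and Oxt in 4 of 6. For 0 of the 8 genes did the libraries of the genotypes separate without overlap in any setting, against 0.0515% of genes tested at E18.5, 1.92% in P21 midbrain and 2.02% in P21 cortex.

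**Figure D3:**
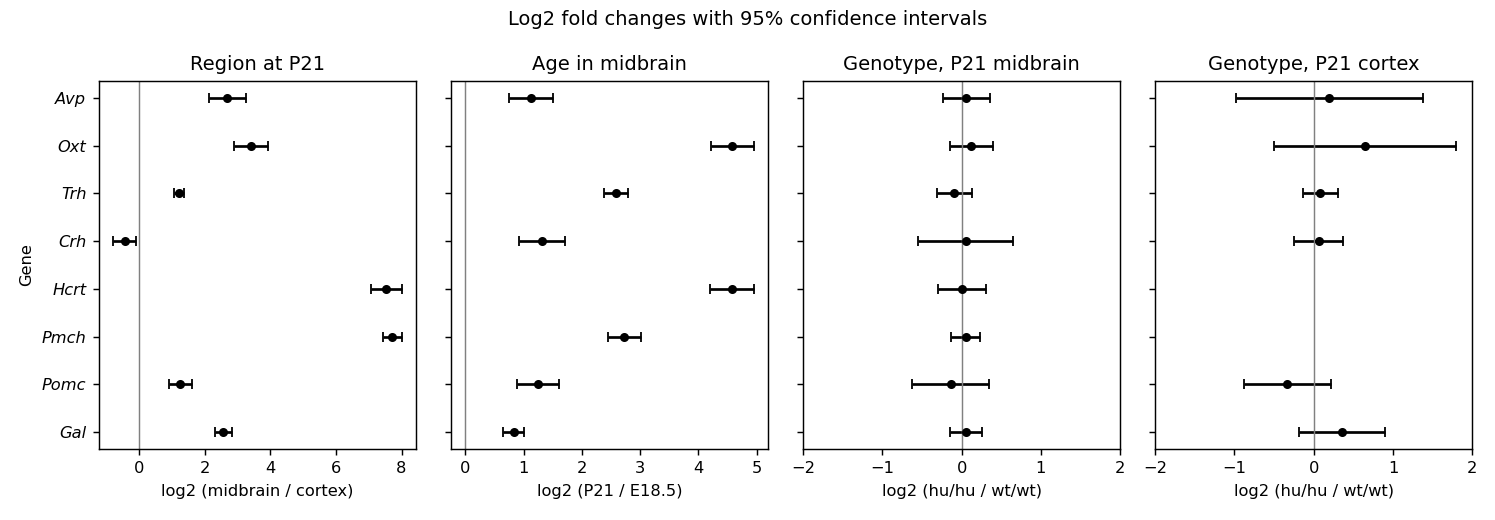
Log2 fold changes of each gene (horizontal axes) with 95% confidence intervals (bars) for region at P21, age in midbrain, and genotype in P21 midbrain and P21 cortex; Hcrt and Pmch are not drawn in the last panel because they did not pass the filter. Region and age intervals lie away from 0 for all 8 genes, with Crh alone below 0 for region, and the genotype intervals all include 0.

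Across single libraries the peptide genes did not vary as a block. Correlations were computed on log2 library-scaled counts (CPM) after removing each genotype's mean, and libraries share depth and dissection, so r is a description. Marker sums entered as log2 of the summed TPM, centred in the same way. At E18.5 the median r over the 28 pairs of genes was -0.01 and 14 of 28 were above 0. Avp and Oxt had r = 0.15 (rho 0.12), which ranged from -0.36 to 0.51 when single libraries were left out. The highest pair was Pmch with Gal (r = 0.67, rho 0.64, 0.51 without the 2 libraries farthest from the median), and Oxt ran against Pmch (r = -0.49, rho -0.50).

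In P21 midbrain the median r was 0.16 and 16 of 28 pairs were above 0. Avp and Oxt had r = 0.70 (rho 0.74, 0.61 without the 2 farthest libraries), and Hcrt and Pmch had r = 0.76 (rho 0.69, 0.70 without the 2 farthest). Hcrt and Pmch had r = -0.31 at E18.5. Trh and Crh also varied together (r = 0.76, rho 0.93, 0.94 without the 2 farthest). The highest value, 0.93 for Avp with Trh, rested on 2 libraries, since rho was 0.43 and r fell to -0.30 without them. In P21 cortex, a setting added after the data were seen, the median r was 0.03, and Avp and Oxt had r = 0.89 (rho 0.86). Without the 2 farthest libraries that value was 0.69. Nova1 hu/hu replicate 2 held 4 counts of Avp (95% exact Poisson interval 1.09 to 10.2) and 1 count of Oxt (interval 0.0253 to 5.57), while its Trh, at 12.7 TPM, and Crh, at 8.12 TPM, lay within the range of the other libraries; the intervals cover counting error only.

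**Figure D4:**
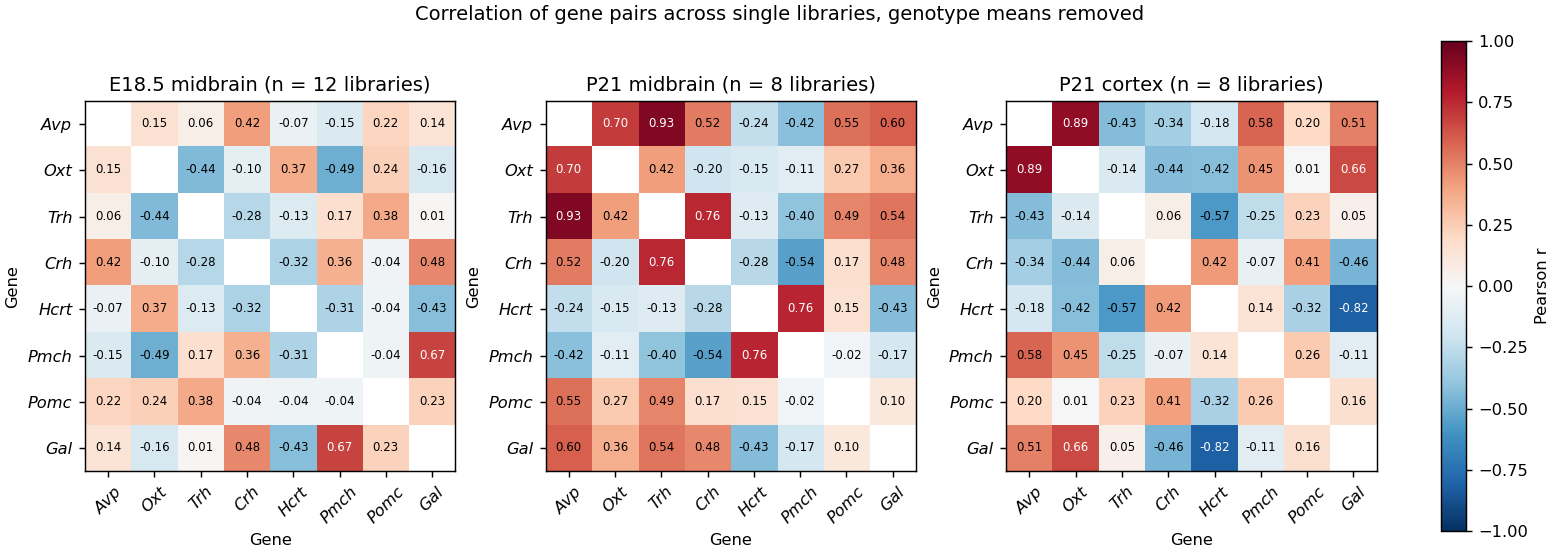
Pearson r between each pair of the 8 genes (both axes) across the 12 embryonic midbrain libraries, the 8 of P21 midbrain and the 8 of P21 cortex, in that order, on log2 CPM with genotype means removed; red is positive and blue negative, and the number in each square is r. Avp with Oxt is 0.15, 0.70 and 0.89 in the 3 panels, and most squares are pale at E18.5.

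Markers of neighbouring tissue moved with several of these genes, and not all in the same direction. At E18.5 Avp varied with the summed hypothalamic factors (r = 0.66, rho 0.69), Hcrt with the summed midbrain markers (r = 0.80, rho 0.73), Pmch with the summed telencephalic markers (r = 0.78, rho 0.73), and Oxt against the latter (r = -0.63, rho -0.78). A sum is led by its most abundant genes. Taken gene by gene, the median r was 0.28 for Avp (8 of 11 factors above 0), 0.36 for Hcrt (6 of 7), 0.67 for Pmch (4 of 5) and -0.40 for Oxt (1 of 5). These pairs had the largest r with a sum, of either sign, among all pairs of a peptide gene and a marker list at E18.5. With the summed hypothalamic factors the other genes had r of 0.32 (Crh), 0.11 (Trh), 0.08 (Hcrt), -0.04 (Oxt), -0.13 (Pomc), -0.28 (Pmch) and -0.39 (Gal). The values in P21 midbrain were 0.63 (Pomc), 0.48 (Avp), 0.34 (Trh), 0.31 (Oxt), 0.12 (Crh), 0.08 (Gal), -0.49 (Pmch) and -0.54 (Hcrt). In P21 midbrain Pmch rose with the summed midbrain markers (r = 0.88, rho 0.62) and ran against the summed Hox genes (r = -0.91, rho -0.64), and without the 2 farthest libraries these values were 0.29 and -0.14. Replicate 3 of each genotype set these values: the pair had the lowest Hox sums (7.36 and 6.71 TPM), the highest midbrain sums (183.3 and 191.1 TPM) and the highest Pmch (191 and 200 TPM). The same pair had the lowest Crh, at 3.83 and 3.41 TPM. Crh ran against the midbrain markers (r = -0.84, rho -0.86, -0.75 without the 2 farthest libraries) and with the Hox genes (r = 0.81, rho 0.88). The pattern was not particular to midbrain markers. Pmch also rose with the summed thalamic markers (r = 0.80, rho 0.33, -0.18 without the 2 farthest libraries), as did Hcrt (r = 0.70, rho 0.62, 0.33 without them). Crh (r = -0.78, rho -0.81) and Gal (r = -0.66, rho -0.83) ran against the thalamic sum. Replicate 3 of each genotype had the highest thalamic sums, 440.8 and 436.5 TPM. Oxt ran against the summed choroid plexus markers in P21 midbrain (r = -0.89, rho -0.98), and had r = -0.02 with them at E18.5. In P21 cortex Oxt and Avp ran against the summed midbrain markers (r = -0.88 and -0.82, rho -0.64 and -0.62), which became -0.43 and -0.69 without the 2 farthest libraries. In cortex most of this sum was Th, at 9.83 to 19.8 TPM, with Slc6a3 next, at 0.185 to 0.684 TPM. Single midbrain markers were not compared with Oxt and Avp there. Nova1 hu/hu replicate 2, with the lowest Avp and Oxt, had the highest midbrain sum, 20.7 TPM. The part of dissection in the peptide levels was not tested beyond these values.

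**Figure D5:**
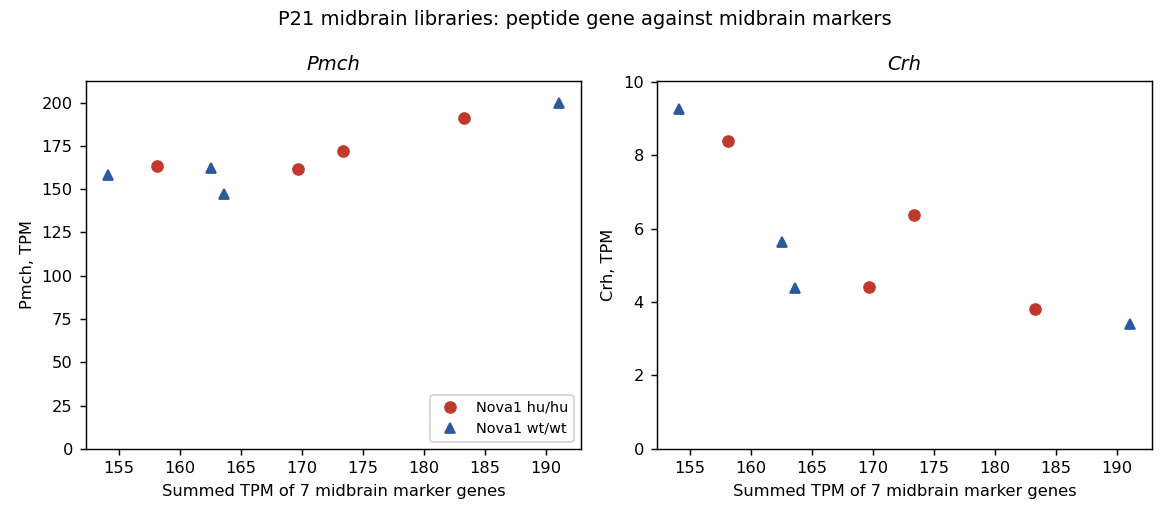
Pmch (left) and Crh (right) in TPM (vertical axes, from 0) against the summed TPM of 7 midbrain marker genes (horizontal axes) in the 8 P21 midbrain libraries; red circles are Nova1 hu/hu and blue triangles Nova1 wt/wt. The 2 libraries with the highest marker sums, 183.3 and 191.1 TPM, have the highest Pmch and the lowest Crh. The same 2 libraries had the highest summed thalamic markers, 440.8 and 436.5 TPM, which are not drawn.

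The genes whose E18.5 pattern was most like that of each peptide were taken as the 5 with the highest r over the 12 libraries, among all genes passing the filter. Avp was most like Fam171a2 (r = 0.90), the neural tube patterning gene Zic1 (r = 0.89) and Lmx1b (r = 0.89), a homeobox gene of midbrain dopamine and serotonin neurons, and without the 2 farthest libraries these were 0.69, 0.83 and 0.69. Pmch was most like Tspyl4 (r = 0.96) and Zim1 (r = 0.95), both 0.94 without the 2 farthest libraries. Gal was most like Cckar (r = 0.94), a cholecystokinin receptor gene, and Hcrt like Gxylt1 (r = 0.93). The closest genes were 4930507D05Rik for Oxt (r = 0.89), Fam69a for Trh (r = 0.89), Prdm10 for Crh (r = 0.91) and 2410076I21Rik for Pomc (r = 0.91). None of the 40 genes taken by this rule, of which only the highest are printed here, was among the 8 peptide genes or in any of the 10 other gene lists. Each is the highest of some 15540 values, so a high r is what the choice itself brings.

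Between regions, receptor genes of these peptides were called in each direction about as often as all genes. Of 19 listed receptors 17 were in the tables and 14 were tested, and 6 were called higher and 5 lower in P21 midbrain than in cortex, beside 37.9% and 37.7% of all genes tested. Galr1 (2.14, SE 0.20), Mc3r (1.41, SE 0.20), Hcrtr1 (1.39, SE 0.07), Hcrtr2 (1.37, SE 0.12), Avpr1a (1.33, SE 0.16) and Trhr2 (1.22, SE 0.13) were higher on the log2 scale. Mchr1, the receptor of melanin-concentrating hormone, was lower in midbrain by -1.53 (SE 0.06) while its ligand gene was higher, and the oxytocin receptor Oxtr was lower by -1.36 (SE 0.08). Crhr1 (-0.75, SE 0.05), Crhr2 (-0.66, SE 0.14) and Mc4r (-0.28, SE 0.13) were also lower. With age 6 of 14 were called higher and 3 lower, beside 42.4% and 43.3% of all genes tested. The higher were led by Trhr2 (2.45, SE 0.19), Mc3r (1.70, SE 0.19) and Mchr1 (0.64, SE 0.09). The 3 called lower were Mc5r (-0.55, SE 0.23), Avpr1a (-0.49, SE 0.10) and Oxtr (-0.21, SE 0.09), so that Avpr1a and Oxtr fell while Avp and Oxt rose. The median log2 difference of the receptors was 0.01 for region and 0.10 for age.

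Genes that process, store or degrade neuropeptides rose with age together with the peptides. Of 16 tested, 14 were called higher at P21, beside 42.4% of all genes tested, led by the prohormone convertase Pcsk1 (1.62, SE 0.08), the convertase inhibitor Pcsk1n (1.59, SE 0.12) and the convertase Pcsk2 (1.53, SE 0.04), and 1 was called lower, the TRH-degrading enzyme Trhde (-0.82, SE 0.05), named after its value was seen. Between regions 6 were higher and 8 lower in midbrain, beside 37.9% and 37.7% of all genes, with Crhbp (-1.53, SE 0.06), which binds corticotropin-releasing hormone, Cadps2 (-1.22, SE 0.05) and Trhde (-1.16, SE 0.06) changing most. Of 15 other hypothalamic peptide and amine genes, 9 of 14 tested were higher and 3 lower in P21 midbrain, beside the same shares of all genes. The 3 with the largest fitted values were Npvf (4.05, SE 0.62), Npy (-2.98, SE 0.04), which cortical interneurons also make, and Nms (2.83, SE 0.64). Npvf had 0 to 3 and Nms 0 to 6 counts in a cortex library, so both entered the test through the midbrain libraries and their fitted values depend on the handling of low counts. With age 8 of 11 were higher and 0 lower, beside 42.4% and 43.3% of all genes. Among them were Tac2 (3.34, SE 0.13) and Cartpt (2.39, SE 0.08). Ucn, with 0 to 1 counts in an E18.5 library and 7 to 24 in a P21 one, entered through P21, and no fold is given for it. The median differences were -0.09 and 1.08 for the processing genes and 1.37 and 1.35 for the other peptides, for region and age in that order.

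Between genotypes 0 genes of these 3 lists were called by edgeR or by DESeq2 in any setting, as were 0% of the 15540 genes tested at E18.5 by edgeR. At an unadjusted p under 0.05 there were 0 receptors in each setting. There were 0 processing genes in P21 midbrain, 2 in P21 cortex and 1 at E18.5, and 1, 0 and 0 of the other peptides in the same order, beside 2.67%, 2.85% and 1.29% of all genes tested. Named after their values were seen, they were Pcsk1n, at 0.34 (SE 0.15) in P21 cortex and 0.38 (SE 0.18) at E18.5, the granin gene Scg3, at 0.09 (SE 0.03) in P21 cortex, and Nms, at -1.29 (SE 0.50) in P21 midbrain.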

How the data were processed

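Gene tables from OLego alignments to mm10 and Quantas quantification were deposited by the authors for 28 polyA-selected libraries. Per the file headers they hold an estimated count (tag number), exon length and RPKM for each of 23038 genes. The RPKM values deposited by the authors were not used for tests. Counts were rounded to whole numbers, and TPM was computed from counts and exon lengths. Region, age, genotype and interaction differences were fitted over all genes with edgeR 4.0.16 (filterByExpr, TMM, quasi-likelihood test) in R 4.3.3. A call needed p under 0.05 and Benjamini-Hochberg adjusted p under 0.1. Age and region fits used genotype as a covariate. DESeq2 1.42.0 was an alternative. The age of the annotation and the use of strand in counting are not given in the sources used here, so antisense reads cannot be told apart. 95% confidence intervals, exact Poisson intervals and the limit of 3 counts for a count of 0 cover counting or library error only.

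The 8 genes and all lists were chosen with earlier results of these data known, and the E18.5 genotype differences of the 8 genes and all correlations between libraries carry no p. By the naming rule, all 8 genes were named, with any list gene called between genotypes, the receptors of the members, and the 3 called genes of each list with the largest region or age difference. The rule also took the 5 genes most like each in E18.5 midbrain, 40 in all, of which only the highest for each gene are printed. Same-numbered libraries of both genotypes deviated together, with correlations from 0.256 to 0.499 at E18.5, from 0.266 to 0.300 in P21 midbrain and from 0.252 to 0.310 in P21 cortex. The numbers were therefore taken to pair them in counts of pairs and in an alternative fit. The main genotype fits used no pairing, and the SEs and confidence intervals of genotype differences are the unpaired ones unless stated. The scripts were tested on simulated counts. Correlations used log2 CPM with a prior count of 2 for single genes and log2 of the summed TPM for marker sums. Receptor genes that were listed but had no values are not analysed here.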

Additional observations from a re-analysis of the deposited data

Results flagged for a closer look

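A single library stood apart in 4 of the 48 groups of 4 or 6 libraries, by the gap to its nearest neighbour relative to the group's range, where chance flags about 1 in 20 groups. Avp in Nova1 hu/hu replicate 5 of E18.5 midbrain, at 89.2 TPM from 321 counts, was the highest of 6. Trh in Nova1 hu/hu replicate 1 of P21 cortex, at 12 TPM from 166 counts, was the lowest of 4. Hcrt in Nova1 hu/hu replicate 2 of P21 cortex, at 0.43 TPM, was the highest of 4 and rested on 3 counts. Gal in Nova1 wt/wt replicate 4 of P21 midbrain, at 44.0 TPM from 412 counts, was the highest of 4.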

How the results depend on the processing

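Counts of called genes kept their values under another adjusted threshold, RLE scaling, DESeq2 and no filter. With at least 10 counts required in every library, 4 members were called for region instead of 8 and 5 for age instead of 8, since fewer genes entered the test: Avp, Oxt, Hcrt and Pmch left the region fit and Oxt, Hcrt and Pomc the age fit. Within Nova1 wt/wt alone the region difference of Crh was -0.44 and not called. Depth limits Oxt and Hcrt at E18.5 and Hcrt and Pmch in cortex.

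With the replicate block, which pairs same-numbered libraries, no call changed, and the Crh interaction was 0.013 against -0.008 without it. In P21 midbrain the SE of the genotype difference was smaller with the block for all genes but Pomc. For Pmch it was 0.05 against 0.08, for Oxt 0.10 against 0.13, and for Pomc 0.233 against 0.227. Same-numbered libraries of the 2 regions correlated from -0.216 to -0.119 and of the 2 ages from -0.167 to 0.179, so the main fits across these used no block. The block fits across regions and ages, such as those of the Crh and Pmch interactions, still grouped libraries by number. Their deviations did not go together across regions or ages, so these block fits rest on a pairing that the values do not show.

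Leaving out single libraries, the P21 midbrain genotype difference ranged from -0.063 to 0.172 for Avp, -0.181 to 0.355 for Crh, -0.086 to 0.112 for Hcrt, -0.0094 to 0.148 for Pmch, -0.276 to 0.064 for Pomc and -0.0025 to 0.115 for Gal. In P21 cortex it ranged from -0.284 to 0.597 for Avp. The interaction ranged from -0.537 to 0.347 for Avp, -0.240 to 0.293 for Crh and -0.999 to 0.558 for Hcrt. Of these none was called in any fit, and the cause was not tested. At E18.5 the difference ranged from 0.39 to 0.86 for Avp and from 0.41 to 0.92 for Oxt, lowest without Nova1 hu/hu replicate 5. For Pomc it ranged from -0.252 to 0.019 and for Gal from -0.085 to 0.088, so that both crossed 0. Of the tested single-gene values with a library left out, 34 changed direction, none of them called. Another 578 values counted as unchanged. They include the E18.5 values, which carry no call and were judged only by a shift smaller than the spread between replicates.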
